A study of Mus musculus with 16 samples.

Results

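The chemokines that draw neutrophils and other myeloid cells were examined in KPC1199 cells, a pancreatic ductal adenocarcinoma line from a mouse with Pdx-cre and a mutant Trp53 allele. The 10 genes were taken by symbol: Cxcl1, Cxcl2, Cxcl3, Cxcl5, Cxcl15, Ccl2, Ccl7, Ccl20, Ccl9 and Ccl25. The rule uses no measured value, but the genes were chosen with earlier results of these data known. All 10 are present in both count tables, among 55414 genes in the untreated experiment and 56980 features in the IFNγ experiment. The cells carried either a control guide (sgCtrL) or a guide against Sin3B (Sin3Bsg1), the gene of a scaffold protein of histone deacetylase complexes. The untreated experiment has 2 libraries per genotype. In the IFNγ experiment each genotype was kept without IFNγ or given 10 ng/ml IFNγ for 24 h, with 3 libraries in each of the 4 groups. All groups share the parental line and its tumor alleles, a single Sin3B guide was used, and the sources used here do not say whether the edited cells were a pool or a clone, nor whether replicate libraries came from separate cultures, so p-values measure the spread between these libraries, which may be technical.

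Chemokines are small secreted proteins that direct leukocytes along a gradient through G protein-coupled receptors. Cxcl1, Cxcl2, Cxcl3 and Cxcl5 are ligands of CXCR2, the main receptor for neutrophil recruitment, and Cxcl15 is a neutrophil attractant known from mouse lung. Ccl2 and Ccl7 recruit monocytes through CCR2, Ccl9 binds CCR1 on myeloid cells, Ccl20 binds CCR6 on immature dendritic cells and some T and B cells, and Ccl25 binds CCR9 and is known chiefly for homing of T cells to thymus and gut. Epithelial tumor cells, pancreatic ones included, are a known source of CXCR2 ligands and of Ccl2. Transcription of Cxcl1, Cxcl2 and Ccl20 is known to respond to NF-κB downstream of IL-1, TNF, IL-17 and Toll-like receptors, and genes induced by IFNγ often hold gamma-activated sites (GAS).

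In the RefSeq annotation of GRCm38.p6, Cxcl5, Cxcl3, Cxcl15, Cxcl1 and Cxcl2 lie in this order in a cluster on chromosome 5, with the platelet chemokine genes Ppbp and Pf4 between Cxcl5 and Cxcl3. Ccl2, Ccl7 and Ccl9 lie on chromosome 11, Ccl20 on chromosome 1 and Ccl25 on chromosome 8. RefSeq promoters were matched by symbol for 7 members, and none was available here for Cxcl5, Ccl2 and Ccl7. The 250 bases before the start of transcription are printed for 4 genes on which the comparisons turn: Ccl20, which differed between genotypes with and without IFNγ, Cxcl2, which rose with IFNγ, its neighbor Cxcl1, and Ccl9, which fell with IFNγ. Capitals mark matches of the κB motif, here GGGA and CC with 4 bases of any kind between them, on either strand. The windows are chr1:83116516-83116765 on the plus strand for Ccl20, chr5:90903649-90903898 on the plus strand for Cxcl2, chr5:90890995-90891244 on the plus strand for Cxcl1 and chr11:83578637-83578886 on the minus strand for Ccl9, all in GRCm38.p6.
Ccl20: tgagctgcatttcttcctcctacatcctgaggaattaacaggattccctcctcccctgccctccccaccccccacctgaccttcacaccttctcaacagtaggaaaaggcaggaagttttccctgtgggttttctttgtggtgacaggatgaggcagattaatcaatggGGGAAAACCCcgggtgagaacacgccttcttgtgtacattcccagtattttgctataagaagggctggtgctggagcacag
Cxcl2: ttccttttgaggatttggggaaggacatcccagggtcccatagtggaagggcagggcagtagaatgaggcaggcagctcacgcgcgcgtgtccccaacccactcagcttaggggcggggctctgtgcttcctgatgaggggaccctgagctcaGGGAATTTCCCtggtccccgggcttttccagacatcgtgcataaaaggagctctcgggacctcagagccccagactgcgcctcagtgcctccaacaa
Cxcl1: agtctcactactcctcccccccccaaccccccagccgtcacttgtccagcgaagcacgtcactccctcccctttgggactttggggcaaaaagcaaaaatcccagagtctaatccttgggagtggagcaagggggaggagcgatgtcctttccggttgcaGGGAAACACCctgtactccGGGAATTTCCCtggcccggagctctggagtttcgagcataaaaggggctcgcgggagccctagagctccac
Ccl9: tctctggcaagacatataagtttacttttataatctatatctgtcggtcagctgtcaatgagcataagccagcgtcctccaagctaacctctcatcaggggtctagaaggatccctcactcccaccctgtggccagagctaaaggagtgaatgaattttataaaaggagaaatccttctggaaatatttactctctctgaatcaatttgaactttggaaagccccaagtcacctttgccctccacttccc
The Ccl20 window holds GGGAAAACCC, 81 to 72 bases before the start. Cxcl2 and Cxcl1 share the letters GGGAATTTCC, which overlap the opposite-strand match GGAATTTCCC, and Cxcl1 has a further match, GGGAAACACC. Of the 7 members with a promoter, 4 (these 3 and Cxcl3) hold a κB match, against 17.6% of all 32851 promoter windows of this length. The GAS motif TTCNNNGAA, searched on both strands, is in none of the 7 and in 7.02% of all windows. A count of none among so few windows is near that share. Ccl2 and Ccl7, which rose with IFNγ, could not be searched. These letters describe the windows, not bound sites.

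The untreated libraries held 29683181 to 32311721 counts each and those of the IFNγ experiment 18128055 to 27056903. Values are given as CPM, counts scaled to the TMM-adjusted library size, or as TPM where genes are compared with each other, since TPM also divides by gene length. Sin3b, the targeted gene, was lower in Sin3Bsg1 in each comparison. It stood at 85.9 ± 3.66 CPM in sgCtrL and 35.3 ± 1.71 CPM in Sin3Bsg1 (SD, n = 2) untreated, at 92.4 ± 3.61 and 39.1 ± 0.411 CPM without IFNγ, and at 82.8 ± 2.15 and 35.6 ± 2.04 CPM with IFNγ (SD, n = 3). All 8 ductal markers (Krt8, Krt18, Krt19, Krt7, Epcam, Cdh1, Muc1 and Sox9) were above 1 TPM in every library. Of the 12 leukocyte and myeloid markers only Cd68 and Ly6g passed 1 TPM, and the defining ones were at or near 0: Adgre1 and Cd3e had no count in any library, Ptprc and Csf1r at most 3 counts and Itgam at most 1. Summed TPM of the leukocyte list moved with the groups of the IFNγ experiment, at 34.3 to 36.3 in sgCtrL and 25.0 to 28.9 in Sin3Bsg1 without IFNγ, and at 43.0 to 51.7 and 38.2 to 46.5 with IFNγ. Of the fibroblast list, Pdgfra and Pdgfrb made up most of the sum, which in the untreated experiment was at least 31.7 TPM in sgCtrL and 10.1 to 11.1 TPM in Sin3Bsg1, while Postn was at 0 and Dcn, Lum and Fap at 6 counts or fewer in every library. The summed endothelial list was at most 0.559 TPM, and its defining gene Cdh5 was at 0. The first sgCtrL library with IFNγ stood apart from its group for Cxcl1 and Ccl25, and member results that rest on it are given with and without it. It also weighed on the whole fit of the IFNγ experiment. Without it, edgeR called 3528 genes between genotypes without IFNγ (2567 with it) and 2948 (2463) with IFNγ. For IFNγ against none, edgeR then called 4726 (4508) in sgCtrL and 5246 (4232) in Sin3Bsg1. The shares of all genes below are with this library. Cxcl1, Cxcl2 and Cxcl3 are close paralogs, so reads could be split between them and their levels are uncertain to that extent. Their deposited values were whole in every library. The values of Ccl9 were not whole in 5 of 16 libraries and those of Ccl25 in 6 of 16, and these were rounded.

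Cxcl5 was by far the most abundant member. In sgCtrL without IFNγ its level was 1106 ± 34.9 TPM, followed by Cxcl1 at 66.4 ± 4.36 TPM, Ccl25 at 30.5 ± 1.70 TPM and Ccl2 at 14.4 ± 3.40 TPM (SD, n = 3). Cxcl3 (6.57 ± 0.918 TPM) came next. Neighbors further down the order overlapped in part, Ccl20 (3.66 ± 0.539 TPM) with Ccl9 (3.27 ± 0.439 TPM) and Ccl7 (1.87 ± 0.982 TPM) with Cxcl2 (1.51 ± 0.0338 TPM). Cxcl15 was last at 0.302 TPM and stayed below 0.5 CPM in all 16 libraries. It did not pass the filter on low counts (filterByExpr) in either table. In Sin3Bsg1 without IFNγ, Ccl20 (10.9 ± 0.809 TPM) stood above Cxcl3 (7.59 TPM) with no overlap between their libraries. With IFNγ, Ccl2 stood above Ccl25, at 41.5 ± 5.01 against 24.2 ± 7.85 TPM in sgCtrL and at 34.5 ± 5.19 against 25.5 ± 0.917 TPM in Sin3Bsg1. The plot of mean TPM shows this order in each group.

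**Figure D1:**
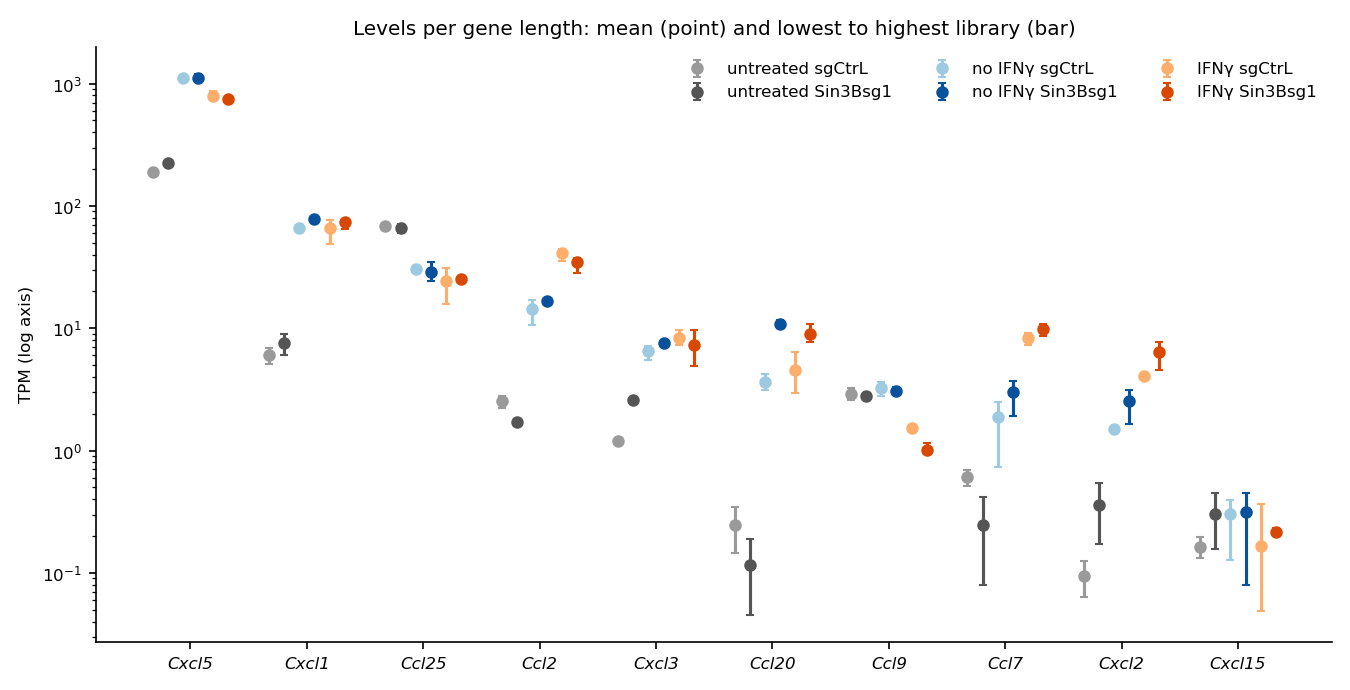
Mean TPM of the 10 chemokines in the 6 groups, on a log axis, with bars from the lowest to the highest library. Cxcl5 is the highest member in every group, at 1106 TPM in sgCtrL without IFNγ and 188 TPM in untreated sgCtrL, and Ccl2 stands above Ccl25 only in the groups with IFNγ.

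Among the CXCR2 ligands Cxcl1, Cxcl2, Cxcl3 and Cxcl5, Cxcl5 made up 89.2 to 94.1% of the summed TPM in the libraries of the IFNγ experiment and 95.0 to 96.6% in the untreated one. Its mean share was 93.7 ± 0.386% in sgCtrL and 92.6 ± 0.435% in Sin3Bsg1 without IFNγ, and 91.0 ± 0.984% and 89.5 ± 0.519% with IFNγ (SD, n = 3). Cxcl1 took most of the rest, with a mean of 5.63% in sgCtrL without IFNγ and 8.83% in Sin3Bsg1 with IFNγ. The summed level of the 4 ligands was 1180 TPM in sgCtrL and 1194 TPM in Sin3Bsg1 without IFNγ, and 869 and 833 TPM with IFNγ.

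The first comparison asked how loss of Sin3B altered these genes in cells without IFNγ. Ccl20 was the member that rose in Sin3Bsg1, nearly 3-fold, and the other 8 members tested did not pass the threshold. Ccl20 stood at 2.69, 2.04 and 2.35 CPM in the sgCtrL libraries and at 6.92, 7.48 and 6.40 CPM in the Sin3Bsg1 libraries. Every Sin3Bsg1 library was above every sgCtrL library. The log2 fold change was 1.56 (SE 0.24, 2.95-fold, 95% interval 2.07 to 4.21, edgeR adjusted p = 2.57e-04). This call held in every alternative analysis. The leukocyte marker sum was lower in Sin3Bsg1 without IFNγ, and so was the fibroblast sum. The latter was at 86.2 to 89.7 TPM in sgCtrL and 76.7 to 80.5 TPM in Sin3Bsg1. Most of the leukocyte sum came from Ly6g and Cd68. Ly6g was at 21.3 to 24.9 TPM in sgCtrL and 11.9 to 16.9 TPM in Sin3Bsg1, while Cd68 overlapped between genotypes. The part of these markers in the Ccl20 difference was not tested. In bulk samples fewer expressing cells and less RNA per cell cannot be told apart.

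Cxcl2, a CXCR2 ligand that is rapidly induced in inflammation, was at 0.754, 0.792 and 0.748 CPM in sgCtrL and at 1.45, 1.57 and 0.816 CPM in Sin3Bsg1. The groups did not overlap, but the third Sin3Bsg1 library lay close to the control libraries. The difference did not pass (log2 0.73, SE 0.31, 1.66-fold, 95% interval 1.05 to 2.64, edgeR adjusted p = 0.131), and without that library it did (log2 0.97, adjusted p = 0.0461). Cxcl1, the homologous ligand next to it in the cluster, was at 30.1, 29.8 and 26.7 CPM in sgCtrL and at 33.1, 33.3 and 33.6 CPM in Sin3Bsg1. The Sin3Bsg1 libraries lay above the control libraries by a small margin (log2 0.21, edgeR adjusted p = 0.312). The value passed with no filter on low counts (adjusted p = 0.0438), with only the 6 libraries compared (adjusted p = 0.0119) and without the first sgCtrL library given IFNγ (log2 0.22, adjusted p = 0.0478).

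Cxcl5 stood at 807, 775 and 801 CPM in sgCtrL and at 756, 753 and 842 CPM in Sin3Bsg1, with overlapping groups. Its fold was 0.987 with a 95% interval of 0.894 to 1.09 (edgeR adjusted p = 0.890). Of the monocyte attractants, Ccl2 was at 6.20, 5.96 and 3.90 CPM in sgCtrL and at 6.20, 6.04 and 6.02 CPM in Sin3Bsg1 (adjusted p = 0.558). Ccl7 was at 0.862, 0.918 and 0.267 CPM against 1.33, 0.696 and 1.20 CPM (log2 0.64, adjusted p = 0.260). Both overlapped between genotypes. Cxcl3 (log2 0.18, edgeR adjusted p = 0.654), Ccl9 (log2 −0.11, adjusted p = 0.727) and Ccl25 (log2 −0.092, adjusted p = 0.789) did not pass either. In all, 1 of 9 members tested passed, against 17.2% of all genes, and 3 of 9 had groups that did not overlap, against 39.2% of all genes. The median log2 fold change over the members was 0.18, beside −0.0090 over all genes.

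**Figure D2:**
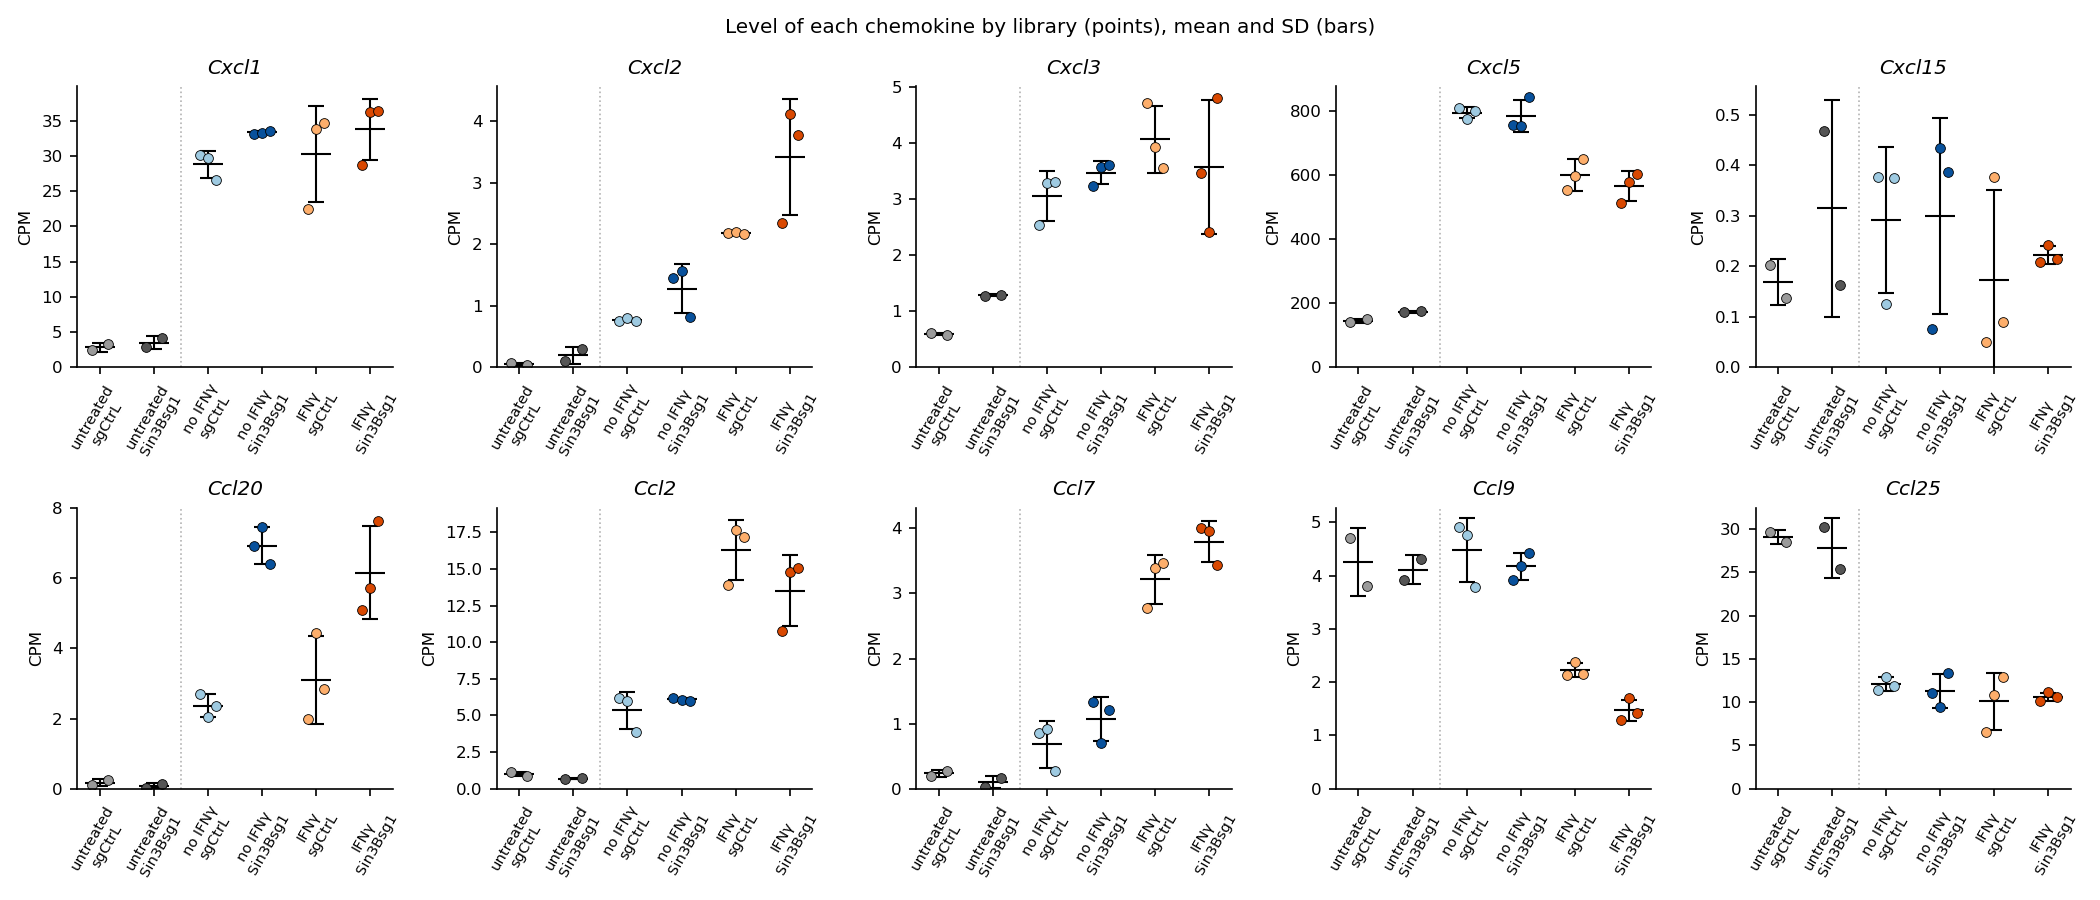
CPM of each chemokine in each of the 16 libraries (points) on linear axes from 0, with the group mean and SD as bars, 1 panel per gene and a dotted line between the experiments. Ccl20 in the IFNγ experiment is at 2.04 to 2.69 CPM in sgCtrL and 6.40 to 7.48 CPM in Sin3Bsg1 without IFNγ. Cxcl5 overlaps between genotypes in that experiment, and in the untreated one it does not.

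The next comparison asked the same under IFNγ. Ccl20 was again higher in Sin3Bsg1, and Ccl9, a CCR1 ligand, was lower. Ccl20 was at 1.99, 4.45 and 2.84 CPM in sgCtrL and at 5.09, 5.73 and 7.64 CPM in Sin3Bsg1. The groups did not overlap, but the second sgCtrL library came close to the lowest Sin3Bsg1 library. The log2 fold change was 0.97 (SE 0.23, 1.95-fold, 95% interval 1.39 to 2.74, edgeR adjusted p = 0.00833). Without the third Sin3Bsg1 library it was 0.78 (adjusted p = 0.0518), with only the 6 libraries compared 0.96 (adjusted p = 0.0535), without the first sgCtrL library 0.75 (adjusted p = 0.0133) and without the second 1.34 (adjusted p = 5.81e-04).

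Ccl9 was at 2.14, 2.38 and 2.16 CPM in sgCtrL and at 1.29, 1.70 and 1.42 CPM in Sin3Bsg1. Every Sin3Bsg1 library lay below every control library. The log2 fold change was −0.60 (SE 0.19, 0.660-fold, 95% interval 0.498 to 0.874, edgeR adjusted p = 0.0420). The call is marginal, with adjusted p from 0.0361 to 0.139 over the alternative analyses, and it was lost in 14 of 18.

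Cxcl2 was at 2.19, 2.19 and 2.16 CPM in sgCtrL and at 2.34, 4.12 and 3.78 CPM in Sin3Bsg1. The first Sin3Bsg1 library was close to the control libraries while the other two were far above. The difference did not pass (log2 0.65, 1.56-fold, 95% interval 1.08 to 2.27, edgeR adjusted p = 0.0980), and without that library it did (log2 0.85, adjusted p = 0.0336). Cxcl1 was at 22.5, 33.9 and 34.7 CPM against 28.8, 36.2 and 36.4 CPM, with overlapping groups (log2 0.15, adjusted p = 0.481, and −0.0076 without the sgCtrL library that stood apart). Cxcl5 was at 552, 595 and 651 CPM in sgCtrL and at 514, 578 and 603 CPM in Sin3Bsg1 (0.943-fold, 95% interval 0.854 to 1.04, adjusted p = 0.448). Ccl2 (log2 −0.27, adjusted p = 0.239), Ccl7 (log2 0.24, adjusted p = 0.611), Cxcl3 (log2 −0.19, adjusted p = 0.624) and Ccl25 (log2 0.065, adjusted p = 0.865) did not pass. Of the 9 members tested 2 passed, against 16.5% of all genes, and 3 had groups that did not overlap, against 30.4%. The median over the members was 0.065 on the log2 scale, beside 0.0036 over all genes.

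In the untreated experiment the members that differed were others, Cxcl5 and Cxcl3, and Ccl20 had too few counts to be tested. Cxcl5 was at 140 and 149 CPM in sgCtrL and at 171 and 175 CPM in Sin3Bsg1. Both Sin3Bsg1 libraries were above both control libraries. The log2 fold change was 0.26 (SE 0.034, 1.20-fold, 95% interval 1.14 to 1.26, edgeR adjusted p = 1.86e-05), and the call held in every alternative analysis. Cxcl3, the third of the clustered CXCR2 ligands by level, was at 0.604 and 0.578 CPM in sgCtrL and at 1.28 and 1.30 CPM in Sin3Bsg1. The genotypes were well apart, on few counts. The log2 fold change was 1.11 (SE 0.37, 2.17-fold, 95% interval 1.25 to 3.74, edgeR adjusted p = 0.0312), and the call was lost with DESeq2 (adjusted p = 0.143) and without any 1 of the 4 libraries (adjusted p 0.107 to 0.130).

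Cxcl1 was at 2.38 and 3.23 CPM in untreated sgCtrL and at 2.83 and 4.14 CPM in Sin3Bsg1, with overlapping groups (log2 0.31, edgeR adjusted p = 0.359). Ccl2 was at 1.11 and 0.884 CPM against 0.653 and 0.712 CPM, which did not overlap but did not pass (log2 −0.54, adjusted p = 0.336). Ccl9 (log2 −0.050, adjusted p = 0.872) and Ccl25 (log2 −0.066, adjusted p = 0.593) overlapped between genotypes. Of 6 members tested 2 passed, against 31.2% of all genes, and 3 had groups that did not overlap, against 63.3% of all genes. The members' median was 0.10 on the log2 scale, beside 0.0024 over all genes. The 4 members not tested had few counts: Ccl20 had 3 and 7 in sgCtrL and 1 and 4 in Sin3Bsg1, and Cxcl2 had 2 and 1 against 3 and 9. Cxcl15 and Ccl7 stayed below 0.5 CPM in these libraries. The summed fibroblast list was lower in both Sin3Bsg1 libraries of this experiment, at 10.1 and 11.1 TPM, and its part in these differences was not tested.

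The levels of several members were far apart between the experiments in the same sgCtrL genotype. From the untreated sgCtrL libraries to those without IFNγ in the IFNγ experiment, mean Cxcl1 was 2.81 and 28.9 CPM, Cxcl5 145 and 794 CPM, Cxcl3 0.591 and 3.05 CPM, Ccl2 0.996 and 5.35 CPM and Ccl20 0.169 and 2.36 CPM. Ccl9 was close in both, at 4.25 and 4.48 CPM, and Ccl25 went the other way, at 29.1 and 12.1 CPM. The tables were processed separately and no test joins them, so experiment, culture and processing cannot be told apart.

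The comparison of IFNγ with no IFNγ asked how the cytokine altered the same genes in each genotype. In both genotypes Ccl2, Ccl7 and Cxcl2 rose and Cxcl5 and Ccl9 fell, and these 10 calls held in every alternative analysis that tested the gene. In sgCtrL 5 of 9 members passed, against 30.2% of all genes, 3 of them higher (15.7% of all genes) and 2 lower (14.5%). In Sin3Bsg1 5 of 9 passed, against 28.4% of all genes, 3 of them higher (16.1%) and 2 lower (12.3%). Groups did not overlap for 6 of 9 members in sgCtrL, against 41.5% of all genes, and for 5 of 9 in Sin3Bsg1, against 45.4%. The median log2 change over the members was 0.41 in sgCtrL and 0.019 in Sin3Bsg1, beside −0.00060 and 0.0052 over all genes. The contrasts of the 2 genotypes have no library in common.

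The monocyte attractants Ccl7 and Ccl2 rose in both genotypes. Ccl7 went from 0.862, 0.918 and 0.267 CPM to 2.78, 3.40 and 3.47 CPM in sgCtrL, and from 1.33, 0.696 and 1.20 CPM to 4.01, 3.95 and 3.43 CPM in Sin3Bsg1. All libraries with IFNγ were above all without it. The log2 change was 2.20 in sgCtrL (SE 0.32, 4.61-fold, 95% interval 2.86 to 7.41, edgeR adjusted p = 7.53e-05) and 1.81 in Sin3Bsg1 (SE 0.29, 3.50-fold, adjusted p = 1.88e-04). Ccl2 with IFNγ was at 13.9, 17.7 and 17.2 CPM in sgCtrL and at 10.7, 14.8 and 15.1 CPM in Sin3Bsg1, each far above the 3.90 to 6.20 CPM of libraries without it. The log2 change was 1.60 in sgCtrL (SE 0.16, 3.03-fold, 95% interval 2.38 to 3.85, edgeR adjusted p = 1.49e-06) and 1.15 in Sin3Bsg1 (SE 0.16, 2.22-fold, adjusted p = 3.83e-05). The fibroblast marker sum was lower with IFNγ, at 63.6 to 65.1 TPM in sgCtrL and 55.4 to 61.4 TPM in Sin3Bsg1, while Acta2 of that list went from 0.234 to 0.489 TPM up to 5.15 to 6.22 TPM in sgCtrL and from 0.372 to 0.711 TPM up to 5.27 to 5.47 TPM in Sin3Bsg1. Their part in these results was not tested. The leukocyte marker sum was also higher in every library with IFNγ than in any of the same genotype without it, while the defining markers Ptprc, Itgam and Csf1r stayed at 3 counts or fewer in every library.

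The CXCR2 ligands did not move together. Cxcl2 rose by 1.50 on the log2 scale in sgCtrL (SE 0.30, 2.83-fold, 95% interval 1.82 to 4.41, edgeR adjusted p = 0.00129) and by 1.41 in Sin3Bsg1 (SE 0.27, 2.66-fold, adjusted p = 7.42e-04). Cxcl5 fell by 0.41 in sgCtrL (SE 0.067, 0.754-fold, edgeR adjusted p = 2.44e-04) and by 0.47 in Sin3Bsg1 (SE 0.067, 0.721-fold, adjusted p = 5.51e-05), with no overlap between libraries with and without IFNγ. Cxcl1 overlapped, with a fold of 1.06 in sgCtrL (95% interval 0.872 to 1.28, edgeR adjusted p = 0.703) and a log2 change of 0.019 in Sin3Bsg1 (adjusted p = 0.936). Without the sgCtrL library that stood apart, Cxcl1 was higher with IFNγ in sgCtrL (log2 0.24, adjusted p = 0.0415). Cxcl3 changed by 0.41 in sgCtrL (adjusted p = 0.192) and by 0.037 in Sin3Bsg1 (adjusted p = 0.929) and did not pass.

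Ccl9 fell from 4.90, 4.75 and 3.79 CPM to 2.14, 2.38 and 2.16 CPM in sgCtrL and from 3.92, 4.17 and 4.43 CPM to 1.29, 1.70 and 1.42 CPM in Sin3Bsg1. No library with IFNγ reached the lowest without it. The log2 change was −1.01 in sgCtrL (SE 0.17, 0.497-fold, edgeR adjusted p = 3.55e-04) and −1.50 in Sin3Bsg1 (SE 0.18, 0.353-fold, adjusted p = 9.04e-06). Ccl20 did not pass in sgCtrL (log2 0.42, SE 0.26, adjusted p = 0.249) or in Sin3Bsg1 (log2 −0.17, adjusted p = 0.604). In sgCtrL its value hung on single libraries with IFNγ, at 0.64 without the first (adjusted p = 0.0403) and 0.047 without the second (adjusted p = 0.914). Ccl25 went from 11.4, 12.9 and 11.9 CPM to 6.51, 10.9 and 12.9 CPM in sgCtrL, where the library that stood apart was the lowest (log2 −0.25, adjusted p = 0.328, and −0.041 without it). In Sin3Bsg1 its log2 change was −0.094 (adjusted p = 0.749).

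**Figure D3:**
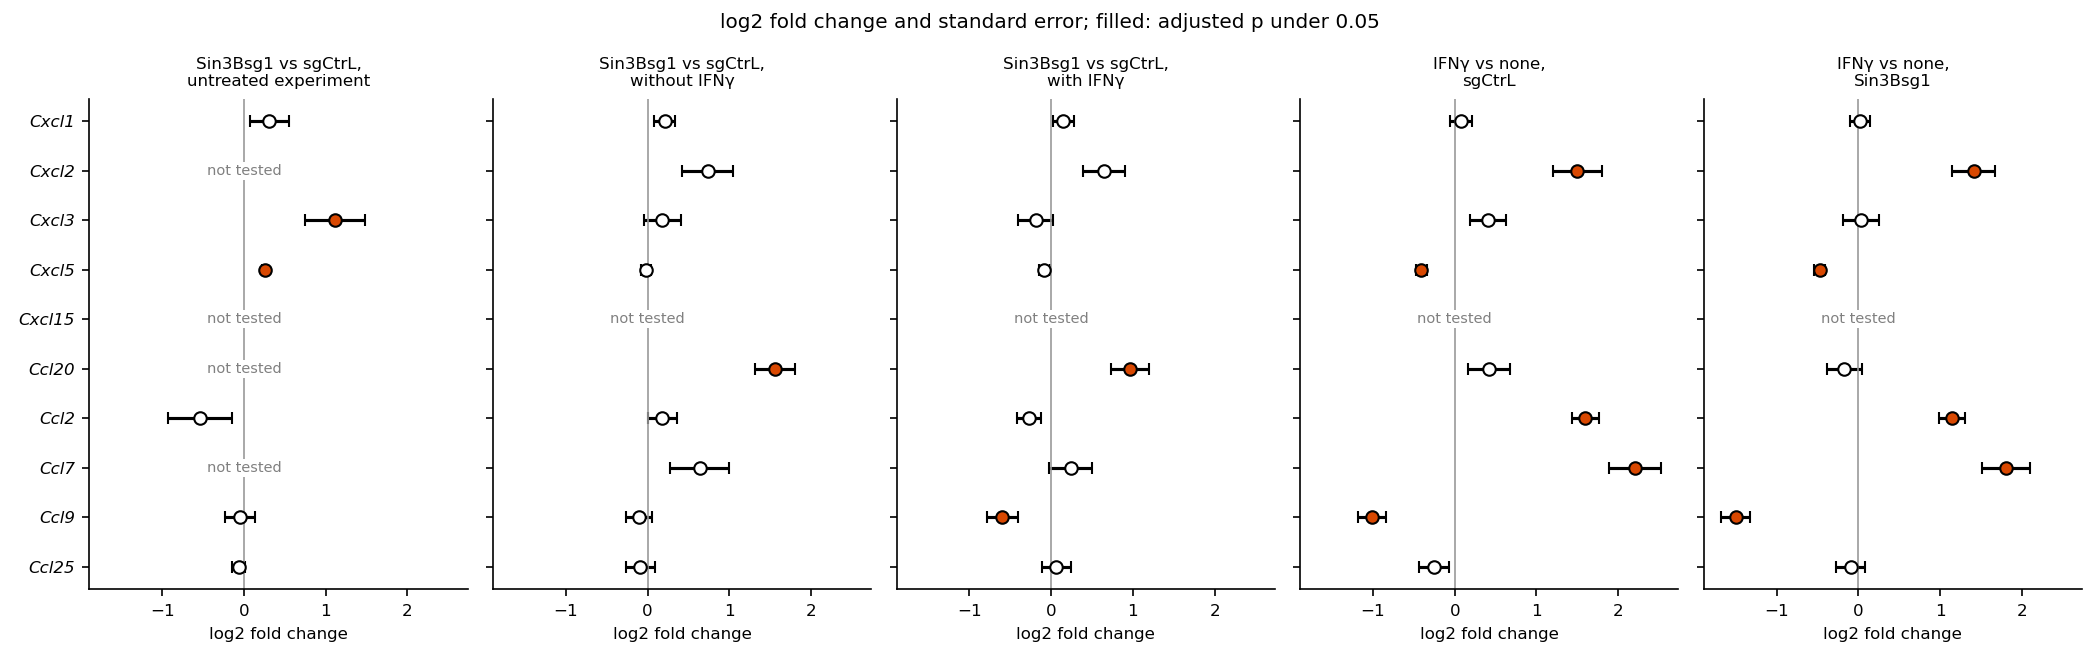
Log2 fold changes of the members tested, with their SE as bars, for the genotype contrasts and for IFNγ in each genotype. Filled points passed an edgeR adjusted p of 0.05, among them Ccl20 at 1.56 and 0.97 in Sin3Bsg1 against sgCtrL without and with IFNγ, and Ccl7 at 2.20 and 1.81 with IFNγ.

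The interaction asked whether the IFNγ response differed between genotypes. By edgeR 0 of 9 members passed, against 0.114% of all genes (17 in number), and 0 had an unadjusted p under 0.05. DESeq2 also called 0, with 1 at an unadjusted p under 0.05. By edgeR the median log2 value over the members was −0.37, beside 0.014 over all genes. Cxcl1 was at −0.058, Cxcl3 at −0.37, Cxcl5 at −0.065 and Ccl25 at 0.16. The others were −0.45 for Ccl2 (SE 0.23, edgeR adjusted p = 0.912), −0.49 for Ccl9 (SE 0.25, adjusted p = 0.912) and −0.59 for Ccl20 (SE 0.33, adjusted p = 0.945). Ccl7 was at −0.40 (SE 0.44) and Cxcl2 at −0.089 (SE 0.39). These errors are too wide to show that the responses were alike. The smaller genotype difference of Ccl20 under IFNγ is therefore not shown to differ from that without it.

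Other chemokines of the cells were read from a list of 28, of which 10 could be tested in the IFNγ experiment and 6 in the untreated one. With IFNγ 6 of 10 rose in each genotype by edgeR, against 15.7% of all genes in sgCtrL and 16.1% in Sin3Bsg1. The CXCR3 ligands, which attract T cells, were at or near 0 without IFNγ. Cxcl9 had no count in any library without IFNγ and 33.1 CPM in sgCtrL and 63.3 CPM in Sin3Bsg1 with it. Cxcl10 went from 0.0678 to 103 CPM in sgCtrL and from 0.139 to 137 CPM in Sin3Bsg1, and Cxcl11 from 0 to 1.04 and from 0 to 1.12 CPM. Ccl8, a further monocyte attractant, went from 0 to 3.19 CPM in sgCtrL and from 0.0143 to 2.42 CPM in Sin3Bsg1. Cx3cl1, the ligand of CX3CR1 on monocytes, rose by 1.69 on the log2 scale in each genotype, from 13.9 to 45.0 CPM in sgCtrL and from 20.4 to 66.2 CPM in Sin3Bsg1. Cxcl16, the ligand of CXCR6, was the remaining gene that rose.

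**Figure D4:**
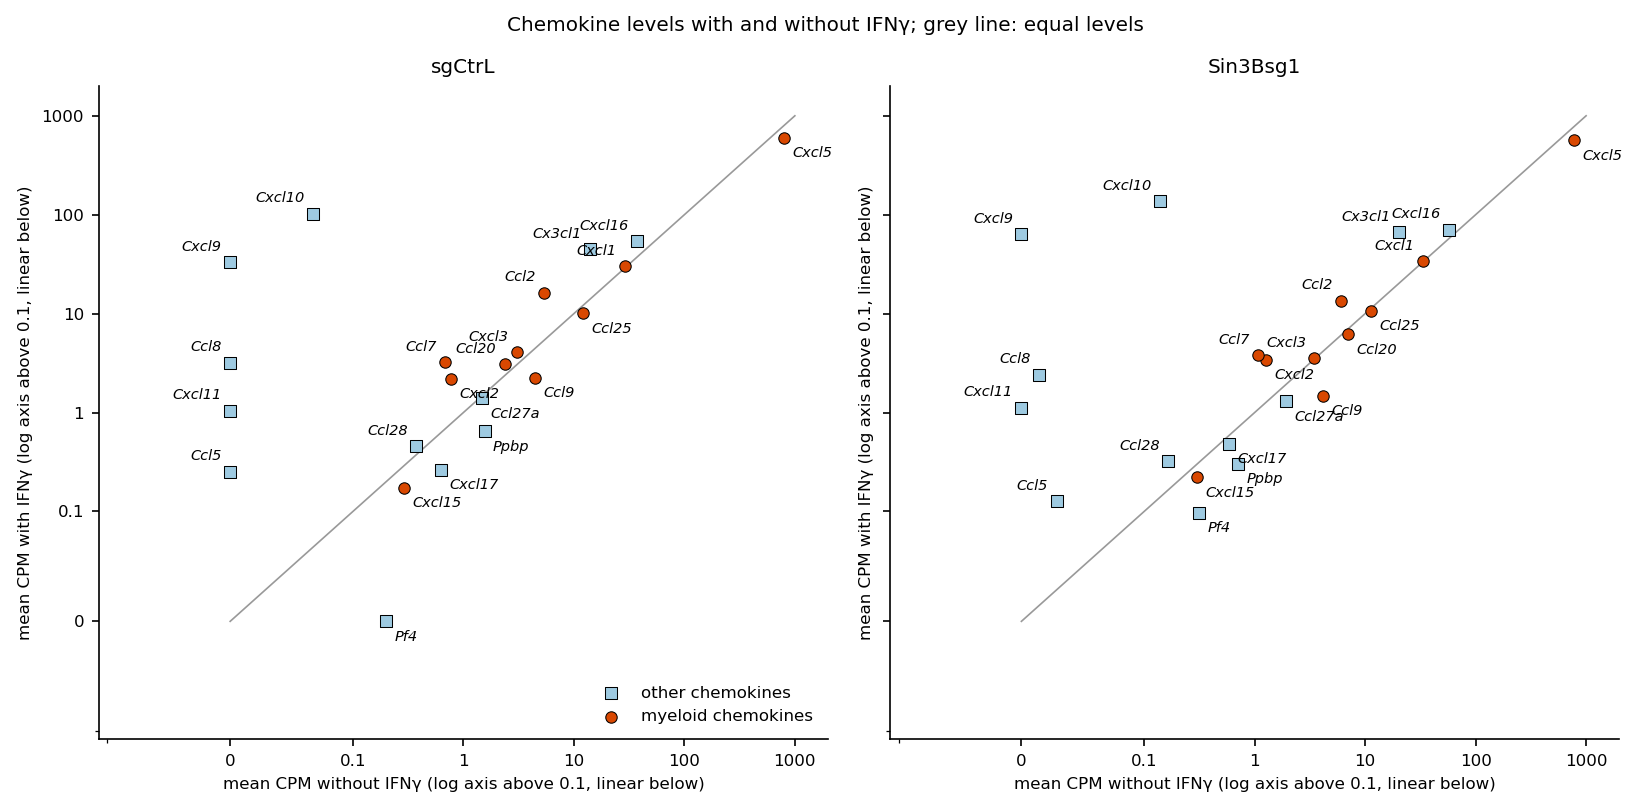
Mean CPM with IFNγ against mean CPM without IFNγ in each genotype (axes linear near 0 and log above) for the 10 members (orange circles) and the 12 other chemokines with a mean of at least 0.2 CPM in a group (blue squares). Cxcl9 and Cxcl10 lie far above the line of equal levels, at 63.3 and 137 CPM with IFNγ in Sin3Bsg1, while Cxcl5 and Ccl9 lie below it.

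Between genotypes, 2 of the 10 other chemokines tested rose in Sin3Bsg1 without IFNγ, Cxcl16 (log2 0.63) and Cx3cl1 (log2 0.55), and 4 with IFNγ, these (0.39 and 0.56) and Cxcl9 (0.93) and Cxcl10 (0.42). In the untreated experiment 3 of 6 rose, Cxcl16 (0.51), Cx3cl1 (0.85) and Cxcl17 (1.85, at 0.186 CPM in sgCtrL and 0.681 CPM in Sin3Bsg1), by edgeR. Of all genes 17.2% without IFNγ, 16.5% with IFNγ and 31.2% untreated passed in either direction. The median over the list was 0.20 without IFNγ, 0.24 with IFNγ and 0.66 untreated, on the log2 scale. In this list the genes named with a log2 change under 1 or a level under 1 CPM were chosen after their values were seen. Of the 10 receptors and scavengers of the members only Cxcr2 had enough counts to test in the untreated experiment. It did not pass, at 0.429 CPM in Sin3Bsg1 and 0.271 CPM in sgCtrL (log2 0.66, SE 0.57, edgeR adjusted p = 0.439). In the IFNγ experiment only Ccr2 had enough counts to test. It was called lower in Sin3Bsg1 with IFNγ, at 0.0421 CPM against 0.394 CPM in sgCtrL, a level of few counts, and it was also chosen after its value was seen.

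In the pathway that leads from IL-1, IL-17, TNF and Toll-like receptors to NF-κB most genes did not pass between genotypes. Of 20 tested genes 3 rose and 4 fell without IFNγ (17.2% of all genes passed), 2 rose and 4 fell with IFNγ (16.5%), and 2 rose and 4 fell in the untreated experiment (31.2%). The receptor gene Il1r1 was lower in Sin3Bsg1 in all 3 comparisons (log2 −0.21, −0.24 and −0.23), and Tlr3, a sensor of double-stranded RNA, was higher (0.35, 0.29 and 0.38), by edgeR. The list medians were −0.026, 0.021 and −0.042 on the log2 scale. With IFNγ 5 rose and 5 fell in sgCtrL (30.2% of all genes passed), and 7 rose and 4 fell in Sin3Bsg1 (28.4%). The medians were −0.017 and 0.053. Tlr3 rose by 1.91 in sgCtrL and 1.84 in Sin3Bsg1 on the log2 scale, Tlr2 by 0.69 and 1.02, and Il1rn, the IL-1 receptor antagonist, fell by 0.76 and 1.24. Il1r1, Tlr3 in the genotype comparisons, and Tlr2 and Il1rn in sgCtrL were chosen after their values were seen.

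Of the 12 NF-κB subunits and inhibitors, 3 rose and 1 fell in Sin3Bsg1 without IFNγ, 2 rose and 1 fell with IFNγ, and 2 fell untreated. In these comparisons 17.2%, 16.5% and 31.2% of all genes passed. In edgeR, Tnfaip3, a feedback inhibitor and NF-κB target, was higher without and with IFNγ (log2 0.58 and 0.41), as were Nfkbie (0.67) and Nfkb2 (0.23) without and Nfkbia (0.19) with IFNγ, while Nfkbiz was lower in both (−0.25 and −0.16). Untreated, Nfkb1 (−0.12) and Bcl3 (−0.35) were lower. These small changes were chosen after their values were seen. With IFNγ 3 rose and 1 fell in each genotype, Nfkbia being the gene that fell (log2 −0.41 in sgCtrL and −0.28 in Sin3Bsg1). Of all genes 30.2% passed with IFNγ in sgCtrL and 28.4% in Sin3Bsg1. The list medians were 0.079, 0.10 and −0.10 in the genotype comparisons and 0.077 and −0.0070 under IFNγ.

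The factors that bind or cleave chemokine mRNA, among them Zfp36 (tristetraprolin) and its relatives, which promote decay, and Elavl1, which is known to stabilize AU-rich mRNA, gave 2 of 6 higher in Sin3Bsg1 without IFNγ, 1 higher and 1 lower with IFNγ, and 1 higher and 1 lower untreated. Zfp36l2 was higher in all 3 (log2 0.31, 0.17 and 0.089), with Zc3h12a (0.35) without IFNγ, and Zfp36l1 was lower with IFNγ (−0.15) and Elavl1 untreated (−0.15), by edgeR. With IFNγ 3 rose, Elavl1 among them, and 2 fell in sgCtrL, and 2 rose and 1 fell in Sin3Bsg1, Zfp36 being higher in each (0.45 and 0.67). Of all genes 17.2%, 16.5% and 31.2% passed between genotypes without IFNγ, with IFNγ and untreated. Under IFNγ 30.2% passed in sgCtrL and 28.4% in Sin3Bsg1. The medians were 0.0099, 0.095 and 0.093 between genotypes and 0.17 and −0.038 under IFNγ. These genes were chosen after their values were seen.

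Myeloid growth factors and neutrophil companions had 7 of 9 genes tested in the IFNγ experiment. Csf3, the gene of the neutrophil growth factor G-CSF, was lower in Sin3Bsg1 without IFNγ, at 0.789 CPM against 2.10 CPM in sgCtrL (log2 −1.41, SE 0.33, edgeR adjusted p = 0.00683). It also fell with IFNγ in sgCtrL, to 0.849 CPM (log2 −1.30, adjusted p = 0.00687). Csf1, the macrophage growth factor, was higher in Sin3Bsg1 without and with IFNγ (log2 0.45 and 0.19) and lower in the untreated experiment (−0.26), where Lif was higher (0.70), and no other gene of the list passed between genotypes, by edgeR. Of all genes 17.2%, 16.5% and 31.2% passed between genotypes without IFNγ, with IFNγ and untreated. With IFNγ 2 rose and 2 fell in sgCtrL (30.2% of all genes passed), and 3 rose and 1 fell in Sin3Bsg1 (28.4%). Il34, a second ligand of the Csf1 receptor, rose in Sin3Bsg1 (log2 1.21), and the neutrophil companion Lcn2 fell in both genotypes (−0.46 and −0.63). The medians were 0.041, 0.081 and 0.079 between genotypes and 0.22 and 0.40 under IFNγ. Csf1, Lif and Lcn2 were chosen after their values were seen.

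The genes whose level was most like that of Cxcl5 over the 12 libraries of the IFNγ experiment were Ociad2 (Pearson r 0.970), Cmbl (0.969) and Prxl2c (0.966), among 10503 genes. For Ccl25 they were Oip5os1 (0.919), Prpf39 (0.915) and Gm14295 (0.914). The libraries share their group means and the scaling, and for Ccl25 the library that stood apart weighs on these values.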

How the data were processed

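RNA-seq libraries of KPC1199 cells, 16 in number, were analysed from 2 tables in which the authors deposited estimated counts per gene without normalization. Of the 10 members, 8 had whole values in every library. Per the paper, reads were aligned to mm9 with HISAT2 and unique reads were counted with featureCounts, while the submitters' processing notes list mm39, fastp, HISAT2, StringTie and DESeq2. Which of these made the tables, and the strand setting, are not given in the sources used here. Mean columns of the authors were not used. Among the untreated features, 324 are loci without a gene, which took 0.615 to 0.677% of counts and were left out. Columns named for a lacZ guide were read as sgCtrL, the only control guide of the labels.

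Counts were rounded and tested with edgeR 4.0.16 in R 4.3.3 (TMM, filterByExpr, glmQLFit and glmQLFTest, two-sided). P-values were adjusted by Benjamini-Hochberg across all genes that passed the filter, 14589 in the untreated table and 14913 in the IFNγ table, and the threshold was 0.05. The tables were fitted apart, the IFNγ table with a mean for each of its groups. The 95% intervals use the t quantile at the fitted degrees of freedom. Counting error at a level near 3 counts leaves no fold to read. The biological coefficient of variation was 2.84% untreated and 6.78% in the IFNγ experiment. The step was tested on simulated data with large planted changes and the same variation in every gene. Small changes and a library that stands apart were not simulated, so that test does not cover them. Alternatives were DESeq2 1.42.0 (size factors and test), no filter, at least 10 counts in every library, a replicate block, each library left out, and only the 6 libraries compared.

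All members tested in a comparison were named there. From the other lists, genes past the threshold with an absolute log2 fold change of at least 1 and a mean of at least 1 CPM were named, at most 6 a list, and others only where stated. For likeness, the CXC and the CC member with the highest mean were set against genes with a mean of at least 5 CPM, on log2(CPM + 1). The members and lists were chosen with earlier results of these data known.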

Additional observations from a re-analysis of the deposited data

How the results depend on the processing

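Of 51 fold changes of members, 30 kept their direction and their side of the threshold under every alternative run, and 14 changed sign under at least 1, 0 of them among the 15 that passed. Members called in the untreated comparison went from 2 to 1 with DESeq2 and to 1 without any 1 library. Without IFNγ they went from 1 to 2 with no filter and with only the 6 libraries compared, and to 1 to 2 without 1 library. With IFNγ they went from 2 to 1 with no filter, with DESeq2 and with the replicate block, to 0 with only the 6 libraries, and to 0 to 2 without 1 library. Under IFNγ in sgCtrL they ran from 4 to 7 and in Sin3Bsg1 from 4 to 5 over all alternatives. Genes called for the interaction went from 17 to 115 with no filter, 32 with DESeq2 and 1 to 33 without 1 library. With only the 6 libraries compared, 3995 genes (2567 in the full fit) were called without IFNγ and 1500 (2463) with IFNγ. Where a library left out of the untreated experiment leaves a lone one, that one is assumed to vary like the other group. The causes were not tested.

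Values that changed sign were small. Cxcl1 under IFNγ in Sin3Bsg1 was −0.00259 with DESeq2 size factors and −0.00274 with the DESeq2 test. Without 1 library, log2 values ran for Cxcl1 from −0.0076 to 0.25 between genotypes with IFNγ, −0.022 to 0.24 under IFNγ in sgCtrL, −0.061 to 0.095 under IFNγ in Sin3Bsg1 and −0.23 to 0.043 for the interaction. They ran for the Cxcl2 interaction from −0.32 to 0.098, for Cxcl3 from −0.46 to 0.026 between genotypes with IFNγ and −0.26 to 0.23 under IFNγ in Sin3Bsg1, for Cxcl5 between genotypes without IFNγ from −0.073 to 0.0099 and for Ccl9 untreated from −0.19 to 0.11. For Ccl25 they ran from −0.20 to 0.056 untreated, −0.23 to 0.020 without IFNγ, −0.14 to 0.27 with IFNγ, −0.20 to 0.042 under IFNγ in Sin3Bsg1 and −0.062 to 0.36 for the interaction.

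Replicate numbers showed little pairing of the samples. In the IFNγ experiment same-numbered libraries deviated with correlations of −0.0286 to 0.119, and differently numbered ones with −0.134 to 0.0601. In the untreated experiment the values were 0.0129 and −0.0129, which mirror each other because each group has 2 libraries. With the replicate block, Ccl9 between genotypes with IFNγ was −0.60 (edgeR adjusted p = 0.0551), and no other member call changed. The block called 4671 genes untreated (4545 without it), 2511 and 2389 between genotypes without and with IFNγ, 4400 and 4207 under IFNγ in sgCtrL and Sin3Bsg1, and 13 for the interaction. Cxcl15, Ccl7, Ccl20 and Cxcl2 were too low in the untreated experiment to pass the filter and were not tested there.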
